A study of Mus musculus with 14 samples.

Results

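The promoters of the nuclear genes for oxidative phosphorylation were described in splenic Tregs by chromatin accessibility. A member was a region of the deposited ATAC-seq table whose midpoint lay within 1 kb of a RefSeq start of a nuclear protein-coding gene named Ndufa, Ndufb, Ndufc, Ndufs, Ndufv, Sdh, Uqcr, Cox4, Cox5, Cox6, Cox7, Cox8 or Atp5. This rule used names and positions and no measured value. It found 108 regions of the 67254 in the table, and they belonged to 91 of the 100 genes with such names. For comparison, 12364 of 21774 protein-coding genes (56.8%) had a region near a start. One member, a region of 24 bp at Atp5l, had too few reads to be tested, which left 107 member regions among the 61366 regions tested and among 14280 tested regions near a start of any protein-coding gene (promoter regions).

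Bulk ATAC-seq, which counts insertions of a transposase into open DNA, was performed on 14 libraries in 4 groups. Both states were profiled in each genotype, with 3 control and 4 Atg14-deficient libraries of cTregs and the same numbers of eTregs. Central Tregs (cTregs) were sorted as CD4+Foxp3-YFP+CD44–CD62L+ cells and effector Tregs (eTregs) as CD4+Foxp3-YFP+CD44+CD62L– cells. The CD45.2+ bone marrow was Foxp3Cre Atg14+/fl for controls, so that these cells carried Cre and 1 floxed allele, and Foxp3Cre Atg14 fl/fl for the deficient groups. It was mixed in equal parts with wild-type CD45.1+ marrow and given to sublethally irradiated Rag1-/- hosts, which lack their own mature T cells, and cells were taken after 6 to 8 weeks. Cre was driven by Foxp3, so Cre-mediated deletion depended on Foxp3 expression. In some experiments the study analysed Foxp3Cre Atg14 fl/fl mice that also carried an Atg14-null allele, and it saw no notable differences in the phenotypes it reports. It does not say whether these libraries include cells from such mice. Atg14 encodes a subunit of the Vps34 complex that starts autophagosomes. Host age and sex were not given in the labels.

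Oxidative phosphorylation takes place at the inner mitochondrial membrane. Complexes I and II pass electrons from NADH and succinate to ubiquinone, complex III passes them on to cytochrome c, and complex IV reduces oxygen. Complexes I, III and IV pump protons, and ATP synthase uses the gradient. Most subunits are encoded in the nucleus, and their promoters are known for sites of NRF1, of the ETS factor GABP and of YY1. Tregs are known to rely on mitochondrial respiration, and autophagy removes damaged mitochondria.

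Before the accessibility values, the promoter sequences show what the members shared in sequence, which the rule did not use. RefSeq windows of 300 bases (250 before to 50 after a start, GRCm38.p6) matched 77 of the 91 genes with 82 windows. Windows of genes such as Atp5a1, Atp5mpl, Cox4i1, Cox6c, Ndufa2, Ndufa4l2, Ndufaf6, Ndufb9, Ndufs1, Sdhc, Uqcrb, Uqcrc2 and Uqcrq were not used here. Each of 5 motifs was searched on both strands by its exact letters. NRF1 was written as GCGCA, any base and GCGC, ETS as CCGGAAG, YY1 as AA, any base and ATGGC, the SP box as GGGCGG and the CCAAT box as CCAAT. No search term contained another, but matches could overlap, and the YY1 letters contain an ATG, so that they can fall on a translation start.

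Upstream stretches of 5 members are shown, 3 because the comparisons below turn on them (Atp5h, Atp5md and Uqcr11) and 2 as complex II examples with NRF1 letters (Sdha and Sdhd). Each runs from base -150 to base -1 with motif letters in capitals. Atp5h holds NRF1, 2 reversed CCAAT boxes and a reversed ETS match, Atp5md an SP and a CCAAT box, Sdha 3 NRF1 matches, Sdhd an NRF1 and a reversed ETS match, and Uqcr11 an ETS match.
Atp5h: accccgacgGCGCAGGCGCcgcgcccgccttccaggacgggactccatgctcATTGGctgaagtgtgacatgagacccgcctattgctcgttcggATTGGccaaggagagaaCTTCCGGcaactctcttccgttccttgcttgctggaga
Atp5md: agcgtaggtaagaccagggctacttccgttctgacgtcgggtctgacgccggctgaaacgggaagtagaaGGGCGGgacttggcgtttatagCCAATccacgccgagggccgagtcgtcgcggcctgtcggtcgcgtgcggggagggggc
Sdha: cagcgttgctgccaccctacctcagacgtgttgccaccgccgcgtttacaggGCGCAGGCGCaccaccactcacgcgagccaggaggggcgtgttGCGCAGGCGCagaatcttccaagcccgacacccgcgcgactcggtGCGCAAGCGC
Sdhd: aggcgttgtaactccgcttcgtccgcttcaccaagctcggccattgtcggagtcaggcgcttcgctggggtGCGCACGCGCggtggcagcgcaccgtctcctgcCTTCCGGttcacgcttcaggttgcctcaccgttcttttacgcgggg
Uqcr11: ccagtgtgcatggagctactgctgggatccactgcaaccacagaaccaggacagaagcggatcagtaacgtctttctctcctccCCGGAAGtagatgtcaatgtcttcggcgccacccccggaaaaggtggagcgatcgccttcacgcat
These 5 windows were read on the minus strand of chr11:115419920-115420069, chr19:47090648-47090797, chr13:74350241-74350390, chr9:50603850-50603999 and chr10:80406822-80406971. The YY1 letters lay just after the start in several members, and 28 bases around them are shown with the YY1 letters in capitals for 4 genes.
Atp5b: cccggattccGCCATGTTgagtcttgtg
Ndufa9: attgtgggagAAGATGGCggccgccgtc
Ndufs7: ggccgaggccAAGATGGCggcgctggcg
Ndufc1: cctgcggaacAAGATGGCgccgtccgta
They lie at chr10:128083314-128083341, chr6:126849098-126849125, chr10:80249463-80249490 and chr3:51408916-51408943, and in Atp5b the letters were on the reverse strand. The first YY1 letter was base 18 after the start in Atp5b, 30 in Ndufa9, 25 in Ndufs7 and 23 in Ndufc1.

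NRF1 letters were found in 21 of 82 member windows (25.6%), against 6.38% of the 21263 windows of all protein-coding genes and 9.79% of those of genes with a region. YY1 letters were found in 20 member windows (24.4%), against 6.37% and 7.98%. ETS letters were found in 22 (26.8%), against 11.6% and 17.1%. The other motifs did not stand out in this way: SP letters were in 46.3% of member windows, against 46.2% and 62.0%, and the CCAAT box was in 40.2%, against 38.2% and 37.8%. Of the 20 member windows with YY1 letters, 11 held them after the start (55.0%), against 41.6% of all windows with them. None of the 5 motifs was present in 11.0% of member windows and in 27.6% of all windows. In the central 300 bases of the regions themselves, NRF1 letters were in 18.5% of member regions and 7.35% of all promoter regions, YY1 letters in 26.9% and 7.86%, and ETS letters in 25.9% and 15.1%. These shares are descriptions of letters and do not show that a factor was bound.

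**Figure D1:**
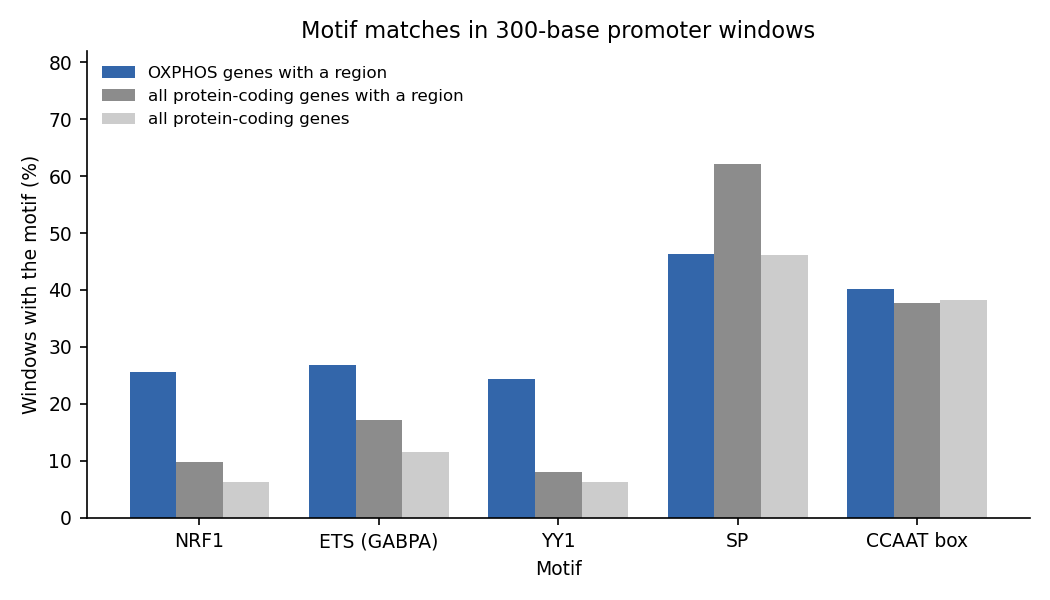
Share of 300-base promoter windows (y axis, percent) that hold each of 5 motifs on either strand, for oxidative phosphorylation genes with a region (82 windows), protein-coding genes with a region and all protein-coding genes. The members' bars for NRF1, ETS and YY1 (25.6%, 26.8% and 24.4%) are above both other bars, whereas their bars for SP and the CCAAT box (46.3% and 40.2%) differ from the all-gene bars by less.

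The libraries held between 2242983 and 5548189 counts in regions. Libraries of 1 group correlated with each other at 0.850 to 0.911 over log2 values, and no pair was identical. The member regions together took 0.419% to 0.478% of the counts, and promoter regions of all genes took 51.9% to 58.5%. Of 6 Treg markers, Il2ra, Ctla4, Ikzf2 and Cd3e had a region near a start. These 4 regions summed to 125.3 to 131.7 CPM in control cTregs, 137.5 to 167.2 in Atg14-deficient cTregs, 93.7 to 97.4 in control eTregs and 117.5 to 125.8 in Atg14-deficient eTregs, so that neither the genotypes of a state nor the states of a genotype overlapped. The 13 regions of 6 cTreg markers summed to 264.7 to 311.6 CPM in cTregs and 183.4 to 235.9 in eTregs, without overlap. The 13 regions of 8 eTreg markers summed to 313.9 to 378.9 CPM in cTregs and 326.9 to 417.2 in eTregs and overlapped between the states of each genotype. Foxp3 and Cd4 had no region near a start, but each had 1 region inside the gene. Of the markers of other cells, none of the 5 B cell genes and 1 of the 5 myeloid genes had a region near a start. Cd8b1, 1 of 2 CD8 genes, had a region at 10.3 to 21.4 CPM (counts of a region scaled to the total of its library) in cTregs and 1.54 to 6.83 CPM in eTregs. Regions of 2 of 3 erythroid genes summed to 4.46 to 7.82 CPM in control cTregs, 7.79 to 16.1 in Atg14-deficient cTregs, 6.18 to 14.4 in control eTregs and 8.99 to 17.0 in Atg14-deficient eTregs, and those of 2 of 3 NK genes to 9.27 to 21.6 over all libraries. The part of these marker differences in the results below was not tested.

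The rule required a midpoint within 1 kb of a start, and most member regions lay closer than that. The distances of other promoter regions were not counted. The midpoint lay within 200 bp of the start in 85 of 108 regions and within 500 bp in 97. Member regions had a median width of 538 bp and a median GC content of 59.5%, against 514 bp and 61.8% for all promoter regions. Another protein-coding gene started within 1 kb of 42 of the 108 regions (38.9%), whereas 9.55% of all promoter regions held starts of 2 or more genes, and accessibility of such a region cannot be assigned to either gene. The count table does not record strand.

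Accessibility was compared between genes as CPM per kb of region. The median member region had 56.7 CPM per kb, which was higher than 63.4% of promoter regions (median 40.3), and 34 of 107 members were above the upper quartile of promoter regions (77.6). The region of Ndufa5, a subunit of the peripheral arm of complex I, had the highest level per length, 283 CPM per kb, and it also lay near a start of Asb15. Cox7c, a small subunit of complex IV, had 241 CPM per kb, and Sdhaf3, an assembly factor of complex II, had 216. Thus, the highest levels per length were not limited to 1 complex. Counted as CPM without length, the region of Atp5j, which encodes a subunit of the ATP synthase stalk, was the highest at 203 CPM (chr16:84834609-84835802). This region is shared with Gabpa, the gene of the DNA-binding GABP subunit.

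By role, the 4 regions of complex II subunits had the highest median, 93.0 CPM per kb, within 74.5 to 98.6. Regions of complex II assembly factors followed with 89.5 (6 regions), ATP synthase with 68.4 (17 regions), complex III with 68.4 (8 regions), complex I assembly factors with 66.2 (10 regions), complex IV with 45.7 (14 regions) and complex I with 42.9 (43 regions). All these ranges overlapped.

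Isoforms with restricted tissue expression had the lowest median. Of 8 such genes, 3 had a region, against 88 of the other 92 members. No region lay within 1 kb of a start of Cox4i2, the hypoxia-linked isoform of subunit 4, of the muscle isoforms Cox6a2 and Cox8b, of Cox7b2 or of the testis isoform Cox8c. The 5 regions of Ndufa4l2, Cox7a1 and Cox6b2 had 7.89 to 30.0 CPM per kb with a median of 26.5, lower than the promoter median. Cox7a1, the heart and muscle isoform of subunit 7a, had 15.3 CPM at its start, whereas the ubiquitous Cox7a2 had 90.8 CPM. The remaining members without a region were Atp5g1, Ndufa6, Ndufb4b and Ndufb4c. Regions in this table depend on the peak calls of the authors, so a missing region does not show closed chromatin.

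**Figure D2:**
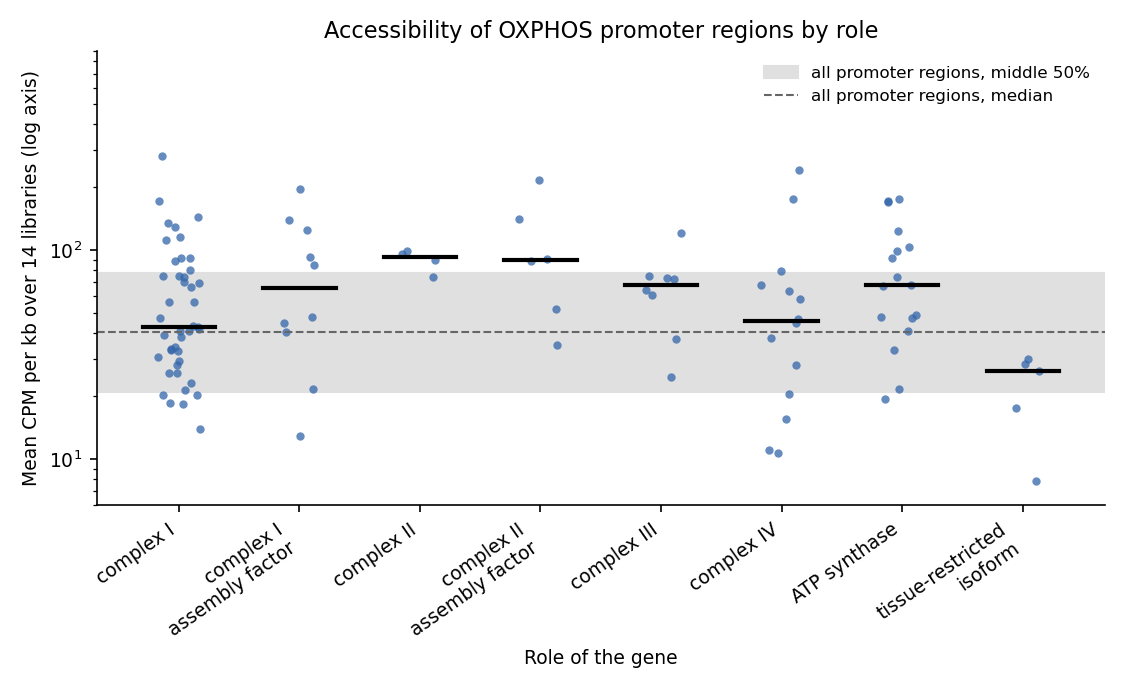
Mean CPM per kb of each tested member region over 14 libraries (y axis, log scale) by the role of the gene (x axis), with the median of each role as a black bar and the median and middle 50% of all promoter regions as a dashed line and a grey band. Complex II regions sit within 74.5 to 98.6 CPM per kb, and the regions of tissue-restricted isoforms sit at 30.0 or lower.

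Core subunits fixed for display had these levels as mean CPM over all libraries. For complex I, Ndufs1, which carries iron–sulphur clusters, had 34.2 CPM, Ndufv1, which binds NADH, 27.96 and Ndufa9 15.7. The catalytic subunits of complex II had similar levels, 63.4 CPM for Sdha and 58.6 for Sdhb. For complex III, the Rieske protein gene Uqcrfs1 had 53.2 CPM and the core protein gene Uqcrc1 31.0. For complex IV, Cox7a2 had 90.8 CPM, Cox4i1 38.9, Cox8a 31.8, Cox5a 16.6 and Cox6c 7.69. For ATP synthase, the catalytic beta subunit Atp5b had 92.9 CPM and the alpha subunit Atp5a1 44.7.

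The first question was whether loss of Atg14 changed these promoters in eTregs. It did so for no member when an adjusted p below 0.05 and a log2 difference over 0.5 in size were required (edgeR quasi-likelihood test, Benjamini-Hochberg adjustment over all tested regions), a call made for 0.0228% of all regions. By the unadjusted p with the same fold limit, 2 members were higher (4.59% of all regions were) and 1 was lower (1.77% of all regions), and DESeq2 gave the same counts. The member median log2 fold change was -0.01, beside 0.01 for promoter regions and 0.06 for all regions, with 51 members above and 56 below 0. The groups of libraries did not overlap for 7 members, 1 higher and 6 lower, a share of 6.54% beside 8.48% of all regions.

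Ndufa9, an accessory subunit of complex I, was the lower one (chr6:126848659-126849338). It had 17.2, 22.6 and 24.3 CPM in control eTregs and 16.5, 12.6, 14.8 and 12.3 CPM in Atg14-deficient eTregs. All control eTreg libraries were therefore above all Atg14-deficient ones, by a narrow gap. The log2 fold change was -0.61 ± 0.24 (SE) with an adjusted p of 0.540, so the difference did not pass the correction. Without control eTreg 3 the unadjusted call was lost (-0.50). In cTregs the same region was at 11.0 to 17.5 CPM in controls and 11.3 to 16.8 CPM in Atg14-deficient libraries, which overlapped.

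Cox5a, a subunit of complex IV, was higher. Its region at the start (chr9:57521047-57521482) had 13.7, 16.8 and 15.1 CPM in control eTregs and 22.2, 18.8, 18.5 and 32.9 CPM in Atg14-deficient eTregs. The groups did not overlap, and the highest library, Atg14-deficient eTreg 4, stood well above the rest. The log2 fold change was 0.61 ± 0.26 with an adjusted p of 0.568. Without Atg14-deficient eTreg 4 it was 0.38, and the unadjusted call was lost, as it was without control eTreg 1 (0.54) or control eTreg 3 (0.60). The other region called higher, 312.5 bp after the start of the complex I gene Ndufa13, overlapped between groups (0.52 ± 0.23, adjusted p = 0.574). Without control eTreg 2 the members called were 7 higher and 2 lower, beside 5.73% and 1.98% of all regions in that fit. Without Atg14-deficient eTreg 2 they were 3 higher and 4 lower (5.38% and 2.43% of all regions), and without control eTreg 1 none higher and 1 lower (3.37% and 1.31%). Ndufa4 is a subunit now counted with complex IV, but its name placed it under complex I in the roles used here. It had the smallest p of the members, 0.00083, with a fall short of the fold limit (log2 fold change -0.47 ± 0.13, adjusted p = 0.305). It was chosen for mention after its values were seen.

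Intervals were wide for single regions. The 95% interval of the log2 fold change in eTregs stayed within ±0.5 for 39 of 107 members and within ±1 for 89, and its median half-width was 0.40. For core subunits, the eTreg log2 fold changes were -0.22 ± 0.14 for Sdha, -0.01 ± 0.15 for Sdhb, -0.01 ± 0.14 for Uqcrfs1, 0.07 ± 0.12 for Atp5b and -0.15 ± 0.16 for Atp5a1. They were 0.34 ± 0.22 for Ndufv1, 0.28 ± 0.20 for Uqcrc1, 0.16 ± 0.18 for Cox4i1, 0.04 ± 0.12 for Cox7a2, 0.41 ± 0.21 for Cox8a and 0.65 ± 0.37 for the region of Cox6c at its start. None of these passed the test. The interval of Cox6c ran from -0.10 to 1.39, and those of the others stayed within ±1.

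In cTregs, loss of Atg14 likewise gave no member at the adjusted threshold, beside 0.0163% of all regions. By the unadjusted p, no member was higher (1.99% of all regions were) and 1 was lower (1.35%), and DESeq2 gave the same counts. The member median was -0.08, beside -0.04 for promoter regions and 0.03 for all regions. Of the members, 77 of 107 were below 0, a larger share than the 8220 of 14280 promoter regions. Groups did not overlap for 6 members, 5 lower and 1 higher (5.61%, beside 5.5% of all regions).

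Ndufs1, the largest subunit of complex I, was the member called lower (chr1:63176583-63177380, shared with the start of Eef1b2). It had 36.7, 42.1 and 45.5 CPM in control cTregs and 32.8, 25.3, 25.5 and 31.2 CPM in Atg14-deficient cTregs. All Atg14-deficient libraries were below all controls. The log2 fold change was -0.53 ± 0.18 with an adjusted p of 1.00. The unadjusted call was lost without control cTreg 3 (-0.46), Atg14-deficient cTreg 2 (-0.48) or Atg14-deficient cTreg 3 (-0.47), and with promoter library sizes (-0.48). In eTregs the same region was at 32.8 to 39.8 CPM in controls and 25.1 to 42.1 CPM in Atg14-deficient libraries, with a log2 fold change of -0.12 ± 0.18, and the groups overlapped.

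The interaction tests whether the genotype effect differed between eTregs and cTregs. No region of the table passed it at the adjusted threshold (0% of all regions), and by the unadjusted p 2 members did (edgeR), beside 3.05% of all regions, whereas DESeq2 called 1. The members with the smallest p were Atp5o, Ndufaf1 and a region of Sdhaf1. Atp5o, a subunit of the ATP synthase stalk, had 61.8, 50.1 and 63.8 CPM in control eTregs, above the 39.3 to 49.8 CPM of the Atg14-deficient eTregs, and 39.2 to 48.4 and 40.5 to 56.8 CPM in the respective cTregs. Its interaction log2 value was -0.48 ± 0.22 and short of the fold limit, which it passed, with the unadjusted p, in 6 of 14 fits with a library left out and in 5 of 12 other fits (-0.59 to -0.38 over all fits). Ndufaf1, an assembly factor of complex I, had an interaction of -0.83 ± 0.39, and the region after the start of Sdhaf1 one of 0.61 ± 0.29. For Ndufaf1, 1 Atg14-deficient eTreg library was at 13.87 CPM and the other 3 at 8.989 to 9.204 CPM, and the unadjusted call was lost in 9 of 14 fits with a library left out (-0.89 to -0.66), being kept without Atg14-deficient cTreg 1, cTreg 3 or eTreg 4 or control eTreg 1 or 2. For Sdhaf1 the unadjusted call was lost in 8 of 12 other fits and in 10 of 14 fits with a library left out (0.39 to 0.64), being kept without control cTreg 2, control eTreg 3, Atg14-deficient cTreg 2 or Atg14-deficient eTreg 4. The adjusted p was 1.00 for all 3. The difference between the states in their response to Atg14 loss was thus not detectable for any single member at this depth and number of libraries.

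**Figure D3:**
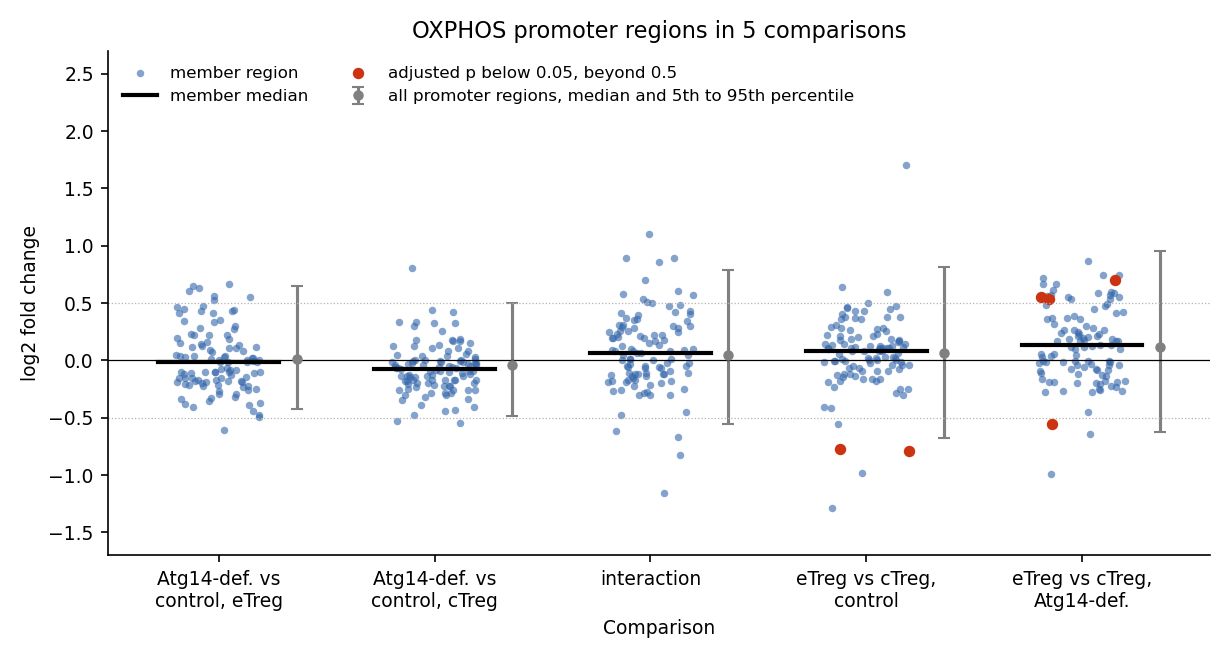
log2 fold change (y axis) of the 107 tested member regions (points) in 5 comparisons (x axis), with the member median as a black bar, the regions past the adjusted threshold in red, and the median and 5th to 95th percentile of all promoter regions in grey beside them. Member medians are -0.01, -0.08, 0.07, 0.08 and 0.13 from left to right and lie near the promoter medians, and red points occur in the state comparisons alone.

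The states of Tregs were then compared within each genotype. In the control groups, eTregs differed from cTregs at the adjusted threshold in 2 members, both lower and both near Sdhaf1, beside 3.29% of all regions lower and 2.01% higher. By the unadjusted p, 2 members were higher (7.76% of all regions) and 3 lower (10.4%). The member median was 0.08, beside 0.06 for promoter regions and -0.01 for all regions, and 67 of 107 members were above 0. The groups did not overlap for 19 members (17.8%, beside 26% of all regions), 15 higher and 4 lower.

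Sdhaf1 encodes an assembly factor that helps insert iron–sulphur clusters into complex II. Its 3 regions lay within 1 kb of its start on chromosome 7, and the called ones were a region centred at -750 bp, before the start (chr7:30322919-30323331) and one at 631 bp after it (chr7:30321572-30321916), inside the single exon of the gene. RefSeq has no transcript over the first one. The 200 bases at its centre, on the plus strand (chr7:30323025-30323224), are shown because this was the one region called in both genotypes, with a reversed CCAAT box in capitals.
Sdhaf1 upstream region: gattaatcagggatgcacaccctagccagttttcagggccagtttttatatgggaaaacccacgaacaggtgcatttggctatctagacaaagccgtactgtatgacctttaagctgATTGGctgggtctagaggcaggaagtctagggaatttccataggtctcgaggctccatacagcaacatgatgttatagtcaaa
Its GC content was 43.3%, below the member median of 59.5%, and it held none of the other 4 motifs in these bases.

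The region before Sdhaf1 had 49.4, 46.9 and 41.5 CPM in control cTregs and 27.6, 32.5 and 21.4 CPM in control eTregs. All eTreg libraries were below all cTreg libraries, and the log2 fold change was -0.77 ± 0.19 with an adjusted p of 0.0140. The region after the start had 36.2, 33.3 and 41.9 CPM in control cTregs and 22.1, 14.2 and 27.0 CPM in control eTregs, again without overlap (-0.79 ± 0.22, adjusted p = 0.0329). Both calls at the adjusted p were lost without control cTreg 1 or without control eTreg 1, when no member was called. The call before the start was also lost without control eTreg 3 (-0.61), and that after it without control cTreg 3 (-0.71), without control eTreg 2 (-0.58), with GC-content offsets (-0.72) or with only the 2 groups compared (-0.79, adjusted p = 0.0502). The region at the start itself had 55.5 to 72.2 CPM in control cTregs and 53.0 to 60.9 CPM in control eTregs, which overlapped (-0.17 ± 0.14, adjusted p = 0.558). The restricted isoform Cox6b2 had 12.5, 7.18 and 9.81 CPM at its start in control cTregs and 3.25, 5.77 and 3.06 CPM in control eTregs (-1.28 ± 0.55, adjusted p = 0.180), and these low counts did not pass the correction. A weak region of Ndufa8, a complex I subunit, at 354.5 bp after its start was higher in all 3 control eTregs (2.60, 4.20 and 4.15 CPM) than in the cTregs (2.1997, 0.479 and 0.446 CPM), with an adjusted p of 0.190. The unadjusted call was lost for Cox6b2 without control cTreg 1, eTreg 1 or eTreg 3 (-1.17 to -1.06) and for Ndufa8 without control cTreg 2 or 3 or eTreg 2 or 3 (1.31 to 1.61).

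In the Atg14-deficient groups, 3 members were higher in eTregs than in cTregs at the adjusted threshold (4.41% of all regions) and 1 was lower (5.4%). By the unadjusted p, 14 members were higher (11.4% of all regions, and 12.4% of promoter regions) and 2 lower (11.8%). The 14 comprised 6 regions of complex I, 3 of ATP synthase, 2 of complex IV and 1 each of complex III, the complex I assembly factors and the restricted isoforms. The member median was 0.13, beside 0.12 for promoter regions and 0.02 for all regions. It was 0.04 with GC-content offsets (promoter regions -0.0017) and 0.06 without Atg14-deficient eTreg 4 (promoter regions 0.10). Groups did not overlap for 11 members (10.3%, beside 15.5% of all regions), 9 higher and 2 lower.

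Atp5md, a small membrane subunit of ATP synthase that holds its dimers together, had the smallest adjusted p of the members called higher (chr19:47090551-47091044, shared with the start of Pdcd11). It had 26.9, 35.04, 46.3 and 25.4 CPM in Atg14-deficient cTregs and 41.9, 66.9, 57.4 and 53.4 CPM in Atg14-deficient eTregs. Among these, the highest cTreg library lay above the lowest eTreg library, so the groups overlapped. The log2 fold change was 0.70 ± 0.18 with an adjusted p of 0.0117. In controls the region was at 44.0, 45.5 and 32.1 CPM in cTregs and 55.3, 57.2 and 50.1 CPM in eTregs, which did not overlap, but its log2 fold change of 0.40 ± 0.20 did not pass the test (adjusted p = 0.254). The interaction was 0.30 ± 0.26, so the rise was not shown to differ between genotypes.

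Atp5h, a subunit of the peripheral stalk, had 23.5, 27.3, 29.7 and 30.8 CPM in Atg14-deficient cTregs and 42.5, 33.5, 40.8 and 44.7 CPM in Atg14-deficient eTregs (chr11:115419825-115420269, shared with Kctd2). The groups did not overlap, and the log2 fold change was 0.54 ± 0.16 with an adjusted p of 0.0313. Cox4i1, the ubiquitous isoform of subunit 4 of complex IV, had 27.7, 42.8, 31.8 and 25.1 CPM in Atg14-deficient cTregs and 46.1, 43.9, 41.0 and 55.5 CPM in Atg14-deficient eTregs (chr8:120667657-120668492, shared with Emc8 and Gm27021). These groups overlapped through 1 cTreg library (0.56 ± 0.17, adjusted p = 0.0353). With GC-content offsets the log2 fold change was 0.34 for Atp5h and 0.32 for Cox4i1, and neither was called with them, with or without a pairing of libraries. A plain rescaling also ended a call, that of Atp5h with promoter library sizes (0.49, adjusted p = 0.0534) and that of Cox4i1 with TMM scaling (0.52, adjusted p = 0.0531), and 2 members were then called higher in each. The adjusted call of Atp5h was lost without Atg14-deficient cTreg 1, 2 or 3 or eTreg 1, 3 or 4 (0.47 to 0.57), and that of Cox4i1 without cTreg 1, 3 or 4 or eTreg 1 or 4 (0.45 to 0.56). All 3 regions that rose also held the start of another gene. Among the 65 tested members without one, none was called higher at the adjusted p, beside 4.41% of all regions. By the unadjusted p, 8 of those 65 and 6 of the 42 with another start were higher (11.4% of all regions). Their median log2 fold changes were 0.17 and 0.03.

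The region before Sdhaf1 was the one that fell, from 50.8, 37.4, 43.6 and 49.8 CPM in Atg14-deficient cTregs to 30.6, 25.9, 31.5 and 34.9 CPM in Atg14-deficient eTregs. The groups did not overlap (-0.55 ± 0.16, adjusted p = 0.0279). With GC-content offsets it was -0.46, short of the fold limit, and the call was also lost without Atg14-deficient cTreg 1, 3 or 4 or eTreg 1, 2 or 3 (-0.57 to -0.49). The region after its start, which was lower in control eTregs, had 32.8, 37.0, 29.2 and 35.01 CPM in Atg14-deficient cTregs and 28.8, 36.8, 31.0 and 21.8 CPM in Atg14-deficient eTregs, which overlapped (-0.19 ± 0.19, adjusted p = 0.583).

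Further members with non-overlapping groups passed the unadjusted threshold alone in the main fit. Ndufb10, a complex I subunit, had 7.56, 11.7, 7.62 and 7.07 CPM in Atg14-deficient cTregs and 12.6, 13.8, 12.7 and 22.1 CPM in Atg14-deficient eTregs (0.86 ± 0.30, adjusted p = 0.0580). Uqcr11, the smallest subunit of complex III, had 6.30, 6.23, 6.84 and 6.10 CPM in the cTregs and 9.29, 11.3, 11.6 and 10.5 CPM in the eTregs (0.74 ± 0.29, adjusted p = 0.0975). The region of Ndufaf3, an assembly factor of complex I, 441 bp after its start had 10.9, 11.7, 8.41 and 15.4 CPM in the cTregs and 15.9, 16.3, 17.5 and 20.8 CPM in the eTregs (0.61 ± 0.25, adjusted p = 0.116). In each of them all eTreg libraries were above all cTreg libraries. The unadjusted call was lost without Atg14-deficient eTreg 4 for Ndufb10 (0.62) and Ndufaf3 (0.52), and for Ndufaf3 also without Atg14-deficient cTreg 3 (0.47) or with GC-content offsets (0.47). Over all edgeR and DESeq2 fits the adjusted p of Ndufb10 ran from 0.0268 to 0.244, so that it gained a call at the adjusted p in some of them.

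**Figure D4:**
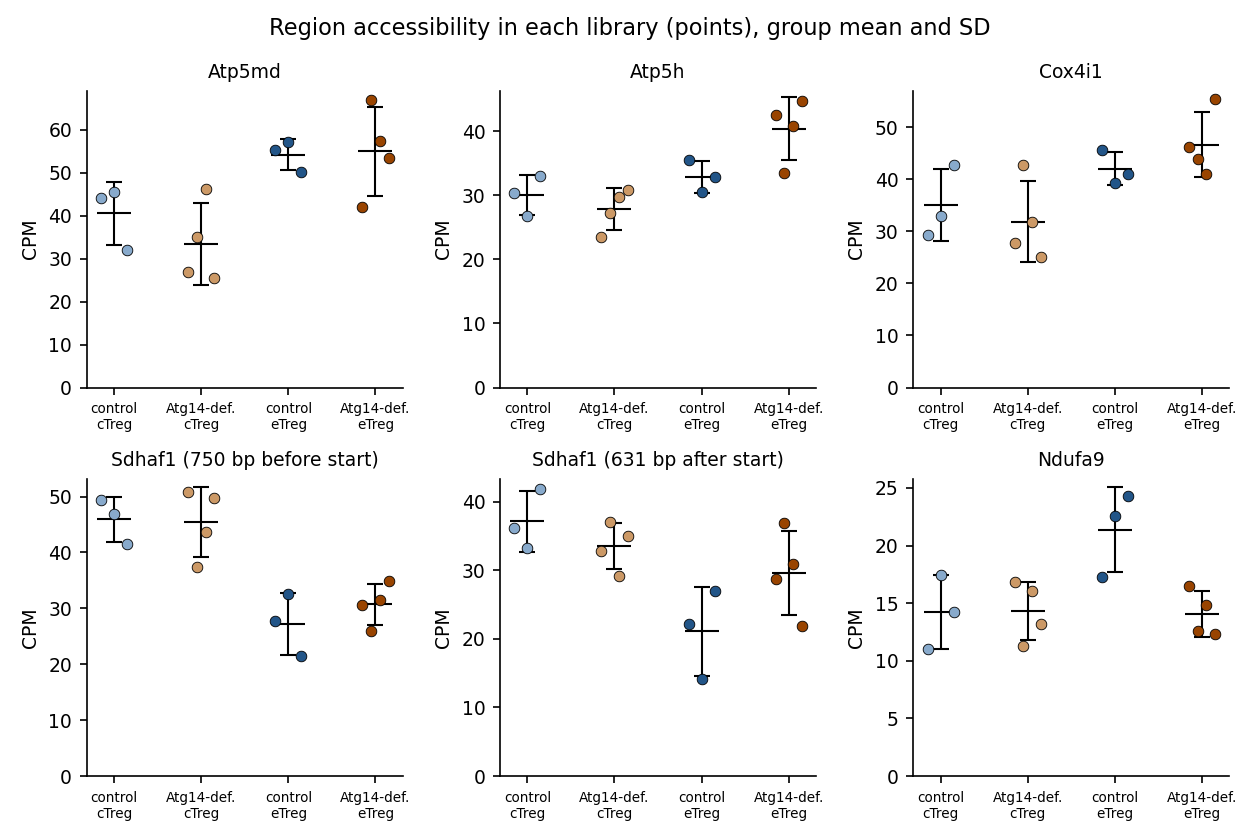
CPM (y axis, from 0) of 6 member regions in each library (points) by group (x axis), with the group mean and SD (n = 3 for control and 4 for Atg14-deficient groups). The Sdhaf1 region at -750 bp is lower in eTregs of both genotypes, whereas Atp5md, Atp5h and Cox4i1 were called higher in Atg14-deficient eTregs than cTregs and Ndufa9 has its highest mean in control eTregs.

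The count of members that rose with state in the Atg14-deficient groups moved with the fit and with single libraries. With GC-content offsets it was 4 higher and 1 lower (11.2% of all regions in each direction), and at the adjusted p 1 higher and none lower (4.45% and 5.12% of all regions). With the libraries of 1 replicate number treated as a pair, as their shared deviations allowed, 17 were higher and 1 lower (12.8% and 12.5% of all regions). At the adjusted p, 8 were then higher (7.48% of members, beside 7.63% of all and 8.78% of promoter regions) and 1 lower (7.84% of all regions). With both, 8 were higher and 1 lower (12.4% and 12.0% of all regions), and 3 higher and none lower at the adjusted p (7.38% and 7.42%). The count of members called in either direction was 7 both without Atg14-deficient cTreg 1 and without Atg14-deficient eTreg 4, against 16 with all libraries, while the share of all regions was 21.1% and 19.4%, against 23.1%. Atp5md kept its call at the adjusted p under all 13 other fits and all 14 fits with a library left out, with log2 fold changes of 0.55 to 0.91. Across member regions, the log2 fold change correlated with GC content at r = 0.24 in Atg14-deficient and 0.31 in control groups (107 regions that share the same libraries), and at 0.19 and 0.11 across promoter regions. The part of GC content in the state differences was not tested further.

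The same state comparison in the 2 genotypes uses separate libraries. The 2 sets of log2 fold changes had the same sign for 70 of 107 members (65.4%, 47 higher and 23 lower in eTregs), beside 72.5% of promoter regions, and correlated at r = 0.46 over members and 0.61 over promoter regions. The regions of each set share libraries and no test was made.

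**Figure D5:**
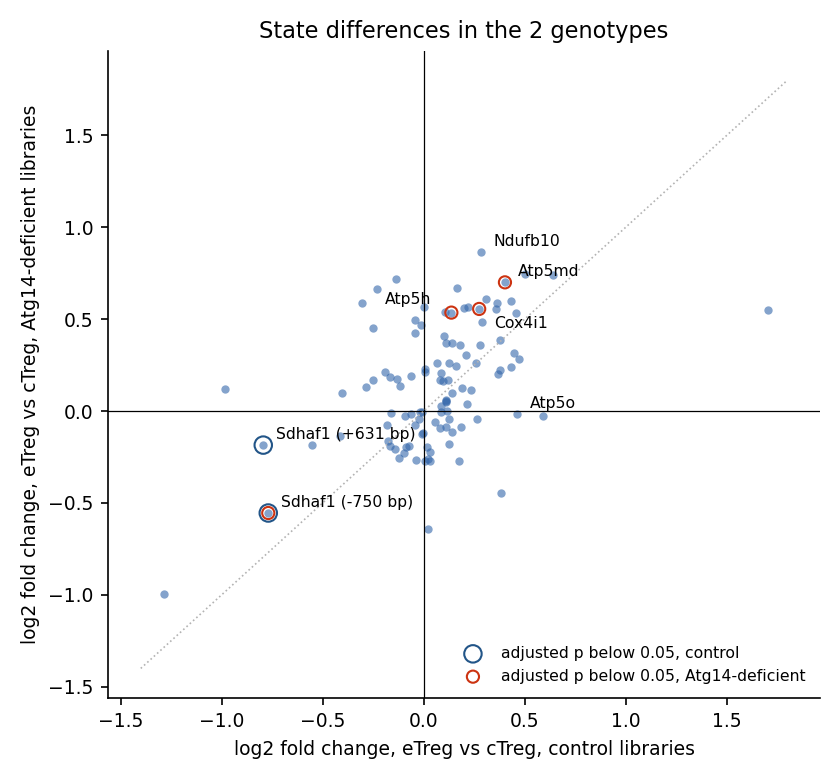
log2 fold change of eTregs over cTregs for 107 member regions in control libraries (x axis) and Atg14-deficient libraries (y axis), with regions past the adjusted threshold circled and the line of equal change dotted. The Sdhaf1 region at -750 bp is circled for both genotypes, and 70 of the 107 points have the same sign on both axes.

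As a level for each library, the mean log2 CPM over member regions was 4.83 ± 0.04 (SD, n = 3) in control cTregs, 4.75 ± 0.06 (n = 4) in Atg14-deficient cTregs, 4.89 ± 0.04 (n = 3) in control eTregs and 4.89 ± 0.07 (n = 4) in Atg14-deficient eTregs. Above the mean of all promoter regions of the same library, members stood by 0.45 ± 0.06, 0.40 ± 0.05, 0.44 ± 0.03 and 0.41 ± 0.04 in this order. On the first scale, Atg14-deficient cTregs (4.659 to 4.789) lay wholly below Atg14-deficient eTregs (4.817 to 4.981) and control eTregs (4.862 to 4.931). With TMM scaling, Atg14-deficient cTregs (4.668 to 4.803) overlapped Atg14-deficient eTregs (4.790 to 4.913) and stayed below control eTregs (4.887 to 4.929). On the promoter-relative scale the ranges of all 4 groups overlapped.

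Other genes of the pathway were counted by the same rule, from lists chosen with these data known. Cycs and Cyc1, which encode cytochrome c and c1, had a region each and no call in any comparison. Of the assembly factors with other names, all 37 had a region, and in Atg14-deficient eTregs against cTregs 1 of their 40 regions rose and 1 fell at the adjusted p, beside 4.41% and 5.4% of all regions. These were Dmac2, a complex I factor (0.54 ± 0.18), and a weak region of Cox10, the heme A synthesis enzyme (-2.07 ± 0.46). Of the carriers, none other than Atp5md, which that list also held, was called. Of 15 regulators of respiratory genes, among them Nrf1, Gabpa, Yy1, Tfam and Ppargc1a, 14 had a region, and none of 19 regions was called at the adjusted threshold in any comparison. The tricarboxylic acid cycle list had 15 regions for 13 genes with a median of 0.26 in control and 0.21 in Atg14-deficient eTregs against cTregs. In the latter, Idh3b, a subunit of NAD-dependent isocitrate dehydrogenase, rose by 0.84 ± 0.27 (adjusted p = 0.0419). No region of these lists was called at the adjusted threshold for loss of Atg14 in either state.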

How the data were processed

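ATAC-seq reads of 14 libraries were processed by the authors. Their notes to the database name GRCm38 (mm10), cutadapt 1.9, Picard 1.65, SAMtools, MACS2 2.1.0.20150603 and bedtools, whereas the study's methods name mm9. Every region of the deposited table that lies on a chromosome fits within GRCm38, which was used. Per the study's methods, the authors removed duplicates, separated nucleosome-free fragments and tested their raw counts. The deposited values are whole numbers that differ in total between libraries and were read as such counts. Groups came from the labels, which do not tie single libraries to mice. The study describes 3 control and 4 Atg14-deficient chimeras, as many as the libraries of each state.

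Counts were scaled to the total region count of each library (CPM, with 2242983 to 5548189 counts a library) and tested with edgeR 4.0.16 (quasi-likelihood, robust, filterByExpr, 1 model for 4 groups) in R 4.3.3, with Benjamini-Hochberg adjustment over 61366 regions. A call needed p below 0.05, unadjusted or adjusted, and a log2 fold change beyond 0.5. Errors are SE for fold changes and SD for levels, and log2 CPM used a prior count of 2. The biological coefficient of variation was 25.6%. The fit was also run on simulated counts with the same spread for every region and no pairing of libraries, and the outcome is not reported here. Alternatives were other scalings (TMM, DESeq2 1.42.0 size factors, loess, promoter counts, GC content), filters, member rules, DESeq2, a replicate block and leaving out each library. Members named are those called, up to a set number per comparison, those with the smallest interaction p, and fixed core subunits. Some single-gene values are not reported here. Members and lists were chosen with earlier results of these data known.

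Same-numbered Atg14-deficient cTreg and eTreg libraries deviated together (r of 0.119 to 0.243 in 4 of 4 pairs), so they were treated as pairs in an added fit. Same-numbered control cTreg and eTreg libraries had r of 0.0543 to 0.209, and libraries of different genotype had no such pattern.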

Additional observations from a re-analysis of the deposited data

Results flagged for a closer look

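In groups of 4 libraries, a library was singled out where its gap to the nearest other, divided by the range of the group, exceeded the 95% critical value of Dixon. This occurred in 8 of 68 groups, those of the nearly empty Atp5l region among them. Chance gives about 1 in 20, but that share does not apply to values that are mostly 0, as at Atp5l. Ndufaf1 had 13.87 CPM in Atg14-deficient eTreg 4, beside 8.989 to 9.204 in the other 3 libraries. Ndufb10 had 22.09 CPM in Atg14-deficient eTreg 4 (others 12.58 to 13.81) and 11.68 CPM in Atg14-deficient cTreg 2 (others 7.067 to 7.625). Uqcrc1 had 44.18 CPM in Atg14-deficient eTreg 4 (others 33.09 to 34.76). The start region of Cox6b2 had 0 CPM in Atg14-deficient eTreg 2 (others 5.03 to 5.993). The 24-bp Atp5l region, which was not tested, had 0.7786 CPM in Atg14-deficient cTreg 2 and 0.2996 CPM in Atg14-deficient eTreg 1 and was at 0 in the others of both groups. The mean log2 CPM of members was 4.659 in Atg14-deficient cTreg 1, beside 4.777 to 4.789. Of the 5 single regions high or low in eTregs, 3 were high in Atg14-deficient eTreg 4, and the cause was not tested.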

How the results depend on the processing

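None of the named regions followed through the alternatives changed direction. Core subunits shown without a call, Ndufa4 and the called Ndufa13 region were among those not followed. The median for the interaction fell below 0 without control eTreg 3 (-0.0024). The median for Atg14 loss in eTregs rose from -0.01 to 0.02 with promoter library sizes. Of the values and counts that answer a comparison, 398 stayed and 65 moved, and for single named regions 350 stayed, 87 lost and 11 gained a call. The cause of the moves was not tested. At this depth the median 95% half-width for a genotype effect was 0.40.

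For Atg14 loss in eTregs, promoter library sizes gave 5 called members, and the median became -0.0972 with GC offsets, -0.0796 with replicate block and GC offsets and -0.0844 with 1 region per gene. In cTregs the count was 0 with promoter library sizes and for members with no start of another gene. For the interaction it was 1 with loess offsets, a 10-count minimum, members within 500 bp, 1 region per gene or the DESeq2 Wald test, and the median became 0.0062 with 1 region per gene. For control states it was 3 within 500 bp and 2 with 1 region per gene, and at the adjusted p 1 with GC offsets or with only the groups compared and 0 within 500 bp or with 1 region per gene. For Atg14-deficient states it was 5 with GC offsets (1 at the adjusted p, median 0.0413) and 10 with no start of another gene (1 at the adjusted p). With a prior count of 0.5 the mean log2 CPM of members was 4.789 in control cTregs and 4.851 in control eTregs.

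The replicate block, with 1 pairing number over all groups, called 16 members for Atg14-deficient states and 4 at the adjusted p, and with GC offsets 8 and 1 (median 0.046). Pairing cTreg and eTreg libraries within a genotype, chosen after seeing the data, called 9 at the adjusted p, and with GC offsets 9 unadjusted (median 0.0474). It gave 4 for the interaction, with and without GC offsets (median 0.0026 with them). The block changed no other count by over 1.5 times, but the unadjusted call of Cox5a was lost under it (0.45).

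Leaving out 1 library at a time gave 1 to 9 called members for Atg14 loss in eTregs (median -0.0528, without Atg14-deficient eTreg 2, to -0.0121), 0 to 3 in cTregs (-0.1208 to -0.0394), 0 to 4 for the interaction (-0.0024 to 0.1033), 4 to 6 for control states (0.0054 to 0.1058) and 7 to 18 for Atg14-deficient states (0.0647 to 0.1756). At the adjusted p it gave 0 for both genotype comparisons and the interaction, 0 to 2 for control and 1 to 6 for Atg14-deficient states. Some of the libraries behind these ranges are named beside the results. In cTregs the called member count was 0 without control cTreg 3, 3 without control cTreg 2 and 2 without control cTreg 1 or Atg14-deficient cTreg 2, 3 or 4. The interaction count was 0 without control cTreg 3, 4 without control eTreg 2 and 1 without control eTreg 1 or Atg14-deficient cTreg 1, eTreg 1 or eTreg 3. For Atg14-deficient states, the upper ends of 18 and of 6 at the adjusted p came without Atg14-deficient eTreg 1 and without Atg14-deficient cTreg 2, and the adjusted count was 1 without Atg14-deficient cTreg 1, cTreg 3 or eTreg 1 and 2 without Atg14-deficient eTreg 3 or 4.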
